A study of Mus musculus with 2 samples.

Results

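9 surface receptor genes of myeloid cells were followed across the cell types of mouse bone marrow: Fcgr1, Fcgr4, Fcer1g, Itgam, Itgb2, Itgax, C5ar1, C3ar1 and Cr1l. They were chosen by name as receptors for the Fc part of antibodies and for complement, with earlier results of these data known. All 9 were measured in both libraries, out of 24014 gene symbols in all. The samples were bone marrow of male wild type mice, strain C57B/6 in the labels, described as young at the start of the diets. The HFD library came from mice on a high fat diet with 60% fat, and the ND library from mice on normal chow, each for 16 weeks. No gene was altered in either group. The labels give neither the number of mice behind a library nor any pooling or sort, so 1 library stands for each diet and no test between diets was possible. RNA was captured with BD Rhapsody, a system that places single cells in microwells with barcoded beads, and counts molecules with unique molecular identifiers (UMIs).

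Fc receptors bind the constant part of antibodies and let a cell engulf or attack what the antibody coats. Fcgr1 encodes the high-affinity receptor for immunoglobulin G and Fcgr4 a receptor of intermediate affinity, and both signal through the common gamma chain encoded by Fcer1g, which carries an activation motif. Itgam (alpha M, CD11b) and Itgax (alpha X, CD11c) each pair with Itgb2 (beta 2, CD18) to form the complement receptors CR3 and CR4, which bind fragments of C3 on a coated particle and mediate adhesion. C5ar1 and C3ar1 encode receptors for the soluble fragments C5a and C3a, which draw and activate leukocytes. Cr1l encodes Crry, a membrane protein of rodents that limits complement activation on the cell's own surface, so the word activating does not describe it.

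Promoters of the integrin neighbours Itgam and Itgax and of Fcgr4 are shown because the neighbours were highest in different cells, and Itgax and Fcgr4 were higher in patrolling monocyte-like cells of the HFD library than of the ND library. Sequences are those of RefSeq, build GRCm38.p6, from 250 bases before to 50 after the transcription start, on the strand of the gene. Capitals mark GAGGAA or its reverse complement TTCCTC, the core of sites bound by the myeloid factor PU.1, searched on both strands. The motif was in 3 of the 8 member promoters in the table, those of Fcgr1, Fcgr4 and Itgam, and in 28.3% of all 32851 promoters of this length. A match is a description of the letters in this window, not a site. Itgam lies on the plus strand of chromosome 7 at chr7:128062640-128118491, and its promoter, chr7:128062390-128062689, held 3 matches that began at positions -84, -15 and 32, with the first transcribed base as 0. Itgax follows it on the same strand at chr7:128129526-128150657, with the window chr7:128129300-128129599 and no match. That window was placed on a transcription start within the stated span of Itgax, not at its first base. Fcgr4 lies on the plus strand of chromosome 1 at chr1:171018926-171029761, with the window chr1:171018676-171018975 and 1 match at -22. Of the other members, Fcer1g (chr1:171229572-171234349) and Cr1l (chr1:195098711-195131570) share chromosome 1 with Fcgr4, and C5ar1 (chr7:16246743-16259540) lies on chromosome 7. Fcgr1 lies at chr3:96282909-96293969, C3ar1 at chr6:122847140-122856157 and Itgb2 at chr10:77530329-77565708.
Itgam promoter: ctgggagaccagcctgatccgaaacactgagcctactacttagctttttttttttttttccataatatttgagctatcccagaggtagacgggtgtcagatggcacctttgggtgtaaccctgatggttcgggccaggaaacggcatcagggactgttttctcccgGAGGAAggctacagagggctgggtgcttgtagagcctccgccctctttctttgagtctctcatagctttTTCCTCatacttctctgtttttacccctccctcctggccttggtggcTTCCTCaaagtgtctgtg
Itgax promoter: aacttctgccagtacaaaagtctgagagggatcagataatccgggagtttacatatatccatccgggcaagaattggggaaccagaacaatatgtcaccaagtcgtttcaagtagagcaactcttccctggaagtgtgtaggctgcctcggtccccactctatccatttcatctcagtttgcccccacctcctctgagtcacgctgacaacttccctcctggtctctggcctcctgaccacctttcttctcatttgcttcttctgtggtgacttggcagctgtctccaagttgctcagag
Fcgr4 promoter: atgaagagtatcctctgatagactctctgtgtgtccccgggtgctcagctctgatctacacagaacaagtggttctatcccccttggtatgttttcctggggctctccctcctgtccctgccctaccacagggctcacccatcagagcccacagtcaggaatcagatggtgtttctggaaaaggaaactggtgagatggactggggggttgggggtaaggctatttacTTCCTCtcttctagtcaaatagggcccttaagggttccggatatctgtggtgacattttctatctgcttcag

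The HFD library held 17282 cells with 117773643 UMIs and a median of 3625 per cell, and the ND library 16817 cells with 117999042 UMIs and a median of 3644. After filtering, 15214 HFD cells and 13890 ND cells remained. The libraries shared 329 cell labels. Clusters were named from markers other than the 9 genes, as X-like, and the 9 genes were left out of the clustering. 10 myeloid classes had at least 100 cells in both libraries. HSPC-like (stem and progenitor), erythroid-like and pro- and pre-B cell-like cells, which belong to marrow, were present in both libraries. Heat shock gene Hspa1a was higher in the HFD library in 8 of the 10 myeloid classes and S100a8, an abundant neutrophil transcript, in 6 of the 7 classes that are not neutrophils; their part in the results below was not tested.
Levels are the summed UMIs of a gene per 1000000 UMIs of the class (CPM), with exact Poisson 95% intervals. Each receptor had its own pattern, and the class with the highest level was the same in both libraries for all members but Itgb2 and Itgax. Fcgr1 was highest in macrophage-like cells, at 155 CPM (141 to 169) in the HFD library and 161 CPM (147 to 175) in the ND library. Classical monocyte-like cells came next, with 38.5 and 22.8 CPM, and patrolling monocyte-like cells had 28.1 and 15.4 CPM, with intervals that overlapped those of the classical class in each library. The 3 neutrophil stages together held 7 HFD and 3 ND UMIs of Fcgr1.

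**Figure D1:**
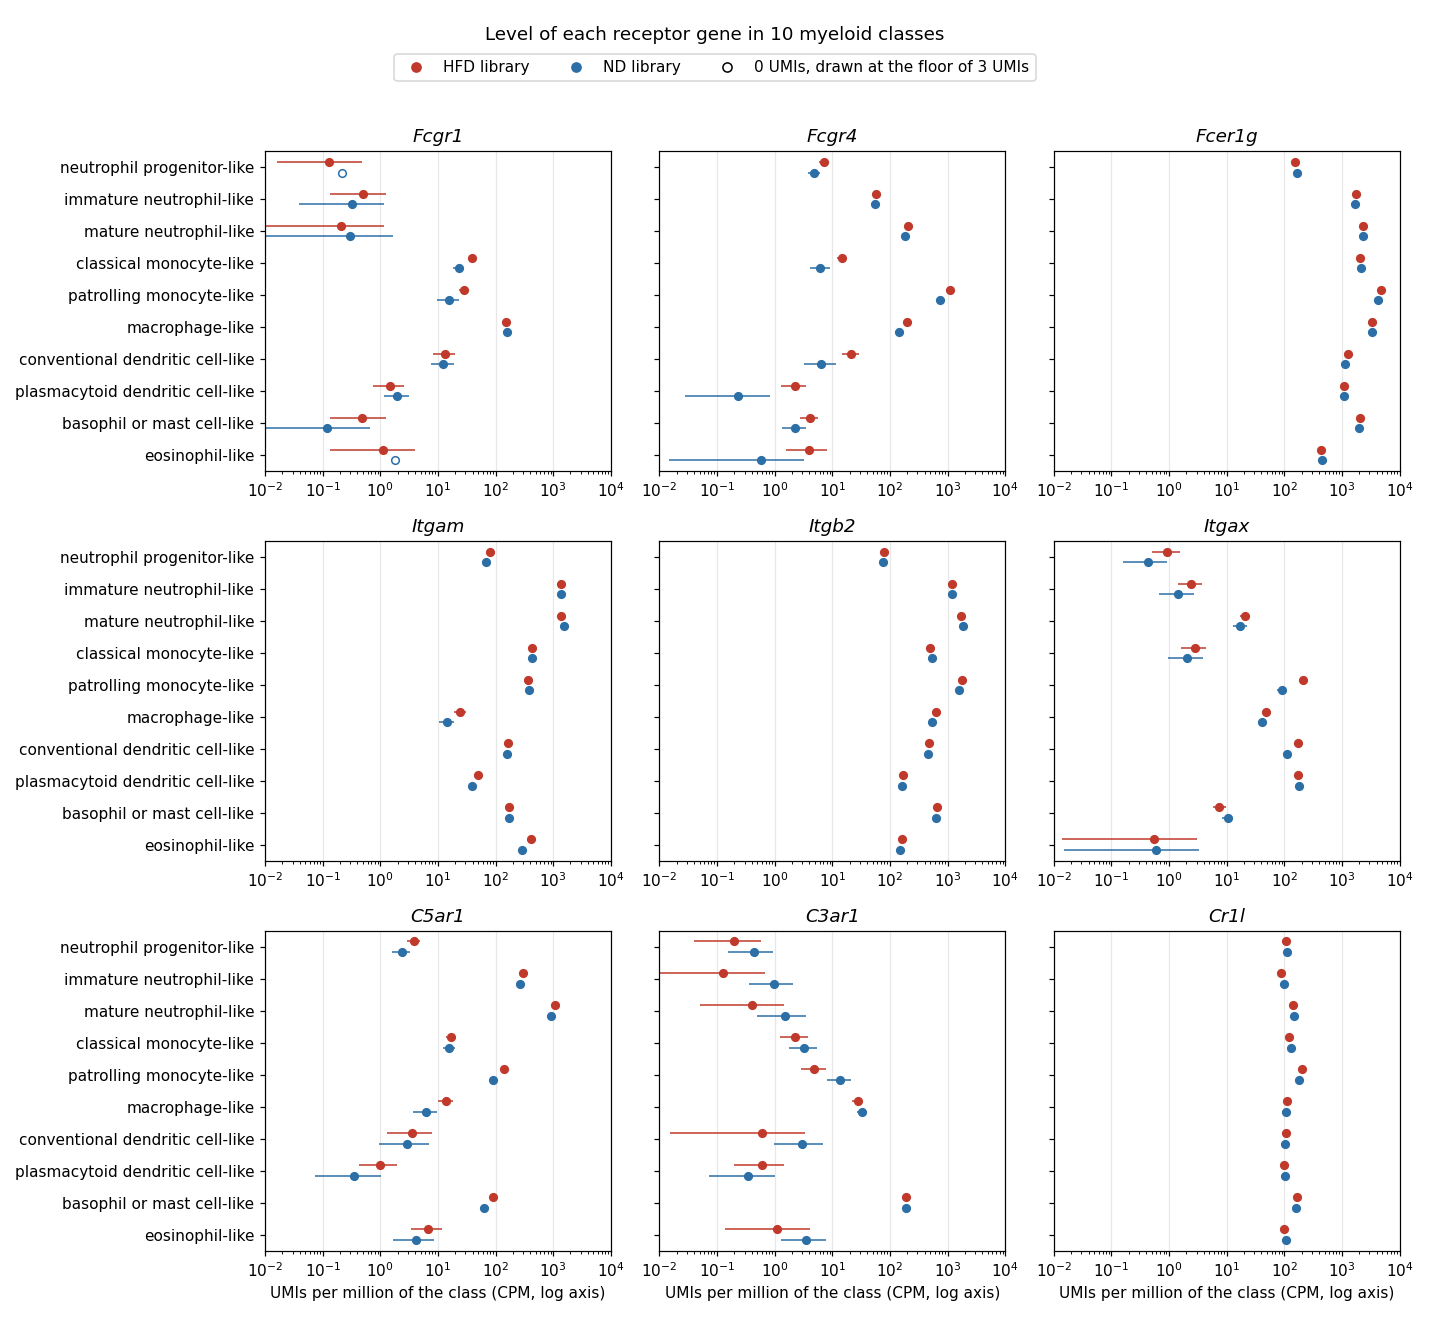
Level of each of the 9 receptor genes in 10 myeloid classes, in CPM on a log axis, with red points for the HFD library, blue points for the ND library and exact Poisson 95% intervals of the UMI sums (those that reach below 0.01 run off the axis). Fcgr4 peaks in patrolling monocyte-like cells, C5ar1 in mature neutrophil-like cells and C3ar1 in basophil or mast cell-like cells, while Cr1l lies between 89.2 and 204 CPM in every class shown.

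Fcgr4 was highest in patrolling monocyte-like cells, with 1119.7 CPM (1085 to 1155) in the HFD library and 739 CPM (696 to 784) in the ND library. Mature neutrophil-like cells had 207 and 183 CPM and macrophage-like cells 197 and 145 CPM. At most 21.0 CPM was found in classical monocyte-like, dendritic cell-like, basophil or mast cell-like and eosinophil-like cells of either library. Fcer1g, whose product serves many receptors, was broad. It was highest in patrolling monocyte-like cells, at 4674 and 4292 CPM, then in macrophage-like cells, at 3360 and 3287 CPM, and lowest among the 10 classes in neutrophil progenitor-like cells, at 153 and 165 CPM. T cell-like cells also held 431 and 447 CPM of Fcer1g, with at least 1 UMI in 44.4% of HFD and 44.7% of ND cells, against 8.90% and 9.33% of B cell-like cells. NK cell markers summed to 8952 and 7768 CPM in the T cell-like class (14 of 14 detected in each library), NK cell-like cells had 1602 and 1803 CPM of Fcer1g, and their part was not tested.

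Itgam and Itgax, neighbours in the genome, were highest in different cells. Itgam was highest in mature neutrophil-like cells, at 1393 CPM (1360 to 1427) in the HFD library and 1519 CPM (1477 to 1561) in the ND library, and in immature ones, at 1376 and 1377 CPM. Macrophage-like cells had 24.3 and 14.4 CPM of it. Itgax was highest in patrolling monocyte-like cells of the HFD library, at 212 CPM, and in plasmacytoid dendritic cell-like cells of the ND library, at 176 CPM. Conventional dendritic cell-like cells, whose textbook marker Itgax is, had 174 and 110 CPM. Outside the myeloid classes, NK cell-like cells had 220 and 291 CPM. Itgb2, the shared beta chain, was present wherever either alpha chain was, from 80.4 and 74.8 CPM in neutrophil progenitor-like cells to 1786 and 1556 CPM in patrolling monocyte-like cells and 1697 and 1824 CPM in mature neutrophil-like cells.

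To compare shares of cells, each cell was thinned at random to 1000 UMIs and shallower cells were left out. At that depth, 167 of 1052 HFD patrolling monocyte-like cells and 44 of 464 ND cells had Itgax, 293 and 142 had Itgam, and 47 and 14 had both. Among mature neutrophil-like cells, 1232 of 1790 HFD and 781 of 1122 ND cells had Itgam, and 51 and 28 had Itgax. In plasmacytoid dendritic cell-like cells the proportions ran the other way, with Itgax in 166 of 991 HFD and 171 of 1052 ND cells and Itgam in 41 and 33. B cell-like cells, which should lack Itgax, had it in 0.525% and 0.217% of thinned cells, at median depths of 2202 and 2317 UMIs before thinning.

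The receptors for C5a and C3a were highest in different classes. C5ar1 was highest in mature neutrophil-like cells, at 1059 CPM (1030 to 1088) in the HFD library and 911 CPM (879 to 944) in the ND library, and neutrophil-like cells together held 82.7% and 84.7% of all C5ar1 UMIs of the libraries. C3ar1 was highest in basophil or mast cell-like cells, at 193 CPM (183 to 203) and 187 CPM (178 to 197), and this class held 91.0% and 89.2% of all C3ar1 UMIs. Within the class, a cluster led by the chemokine genes Ccl4 and Ccl3 had 486 CPM in the HFD library and 453 CPM in the ND library, and a cluster led by the protease genes Mcpt8 and Prss34 had 22.7 and 23.4 CPM. Macrophage-like cells had 27.8 and 33.0 CPM of C3ar1, and all neutrophil-like cells together 6 and 17 UMIs. Cr1l was near even, between 89.2 and 204 CPM over the 10 myeloid classes, and T cell-like cells (131 and 139 CPM) and erythroid-like cells (125 and 133 CPM) lay in the same range.

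For the comparison of diets, HFD over ND log2 ratios were computed class by class with an exact conditional binomial 95% interval. A gene was called higher or lower where the ratio was at least 1.5-fold, the interval excluded 0, and the class held at least 20 UMIs of it over both libraries. These intervals cover counting error only, neither the spread between mice nor that between cells. 74 pairs of a member and a myeloid class passed the minimum, and 12 were called higher and 1 lower in the HFD library. Over all genes, 4.50% of the 99062 pairs were called, 2.22% higher and 2.28% lower. Since the members were chosen with earlier results of these data known, the comparison with all genes is a description only. The calls were not spread evenly: patrolling monocyte-like cells had 5, classical monocyte-like, macrophage-like and conventional dendritic cell-like cells 2 each, plasmacytoid dendritic cell-like and neutrophil progenitor-like cells 1 each, and the other 4 classes none. Fcer1g, Itgb2 and Cr1l were called in no myeloid class.

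**Figure D2:**
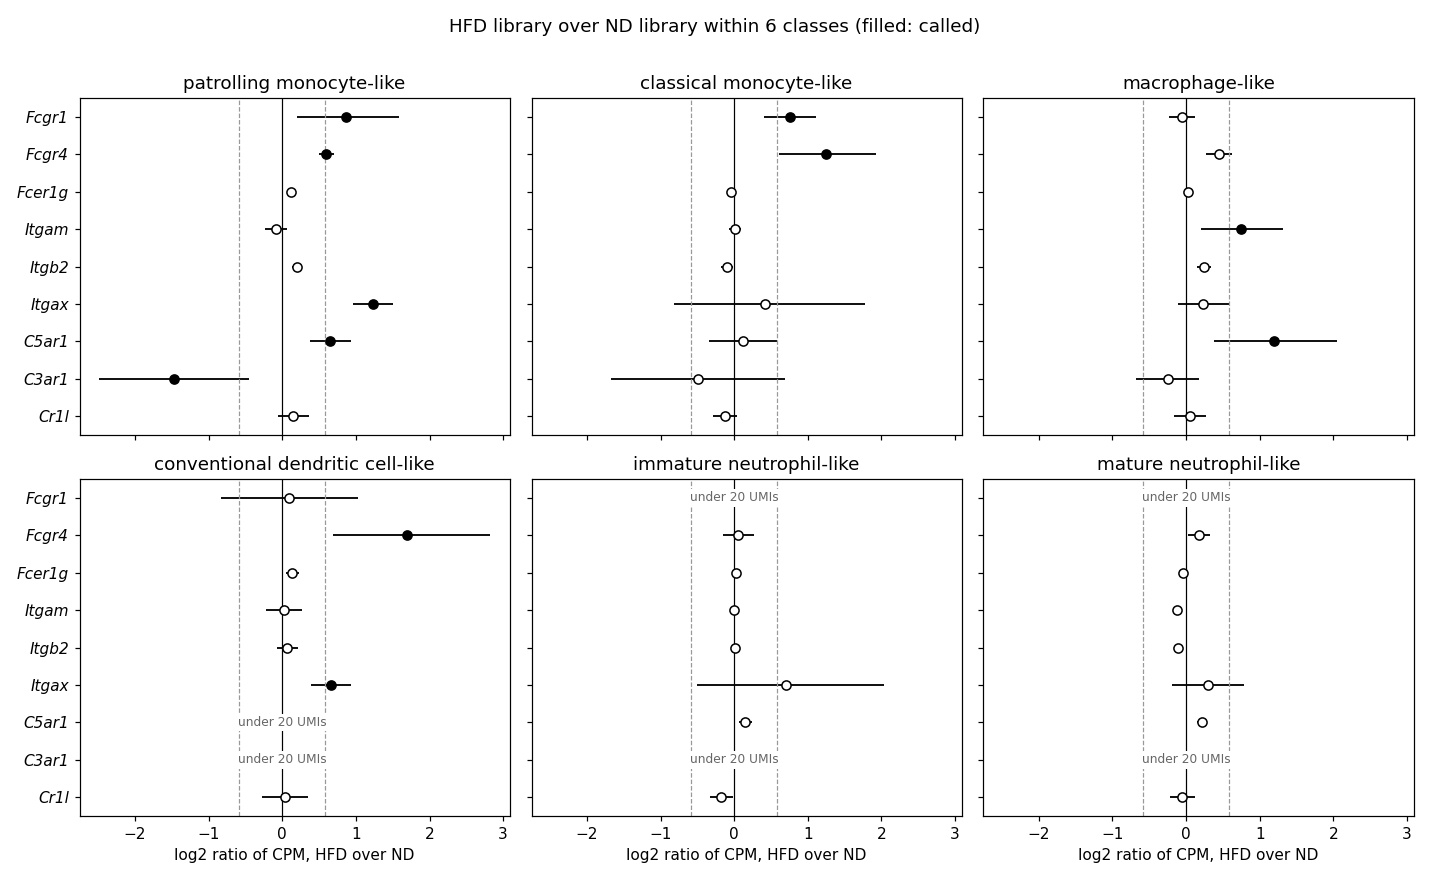
Log2 ratio of CPM of the HFD library over the ND library for the 9 genes in 6 classes, with exact conditional binomial 95% intervals, dashed lines at 1.5-fold and filled points for called genes. Patrolling monocyte-like cells have 5 filled points, 4 of them on the higher side, and both neutrophil stages shown have none.

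Patrolling monocyte-like cells, the long-lived Ly6C-low monocytes that survey vessel walls, were 1074 of the HFD cells (7.06%, 6.66 to 7.48%) and 476 of the ND cells (3.43%, 3.13 to 3.74%). Their cluster was led by Ace, Nr4a1 and Adgre4, and heat shock genes Hspa1b and Hspa1a were also among its top 12 genes. 4 of the 9 receptors were called higher there and 1 lower, where 6.07% of all genes were called in either direction. Itgax had 740 UMIs in the HFD cells and 135 in the ND cells, or 212 CPM (197 to 228) against 90.7 CPM (76.0 to 107). The log2 ratio was 1.23 (0.96 to 1.502), and the call was kept under all alternatives tried, between 0.89 and 1.27. At 1000 UMIs per cell, 15.9% of HFD and 9.48% of ND cells had Itgax.

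Fcgr4 had 3906 UMIs in the HFD and 1100 in the ND patrolling monocyte-like cells, a log2 ratio of 0.60 (0.50 to 0.70), just above the 1.5-fold limit. It was found in 63.2% of HFD and 51.5% of ND cells after thinning, and in 0.175% and 0.217% of B cell-like cells. C5ar1, with 496 and 135 UMIs, was at 142 and 90.7 CPM, a log2 ratio of 0.65 (0.37 to 0.93). Fcgr1 had 98 and 23 UMIs and a log2 ratio of 0.86 (0.20 to 1.59). After thinning it was in 2.38% of HFD and 1.94% of ND cells, and the call was lost at a ratio of 0.35. With doublets kept, the Fcgr4 (0.53) and C5ar1 (0.56) calls were lost. The partner chains had smaller ratios: Fcer1g had a log2 ratio of 0.12 (0.08 to 0.17), Itgb2 0.20 (0.13 to 0.27) and Itgam -0.09 (-0.23 to 0.06). C3ar1 was called lower at -1.46 (-2.49 to -0.46), on 17 HFD and 20 ND UMIs. A single cell held 10 of these in each library, and without those cells the call was lost.

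Summed markers of some other cell types in the patrolling class also differed between libraries. Whether they came from other cells or from the monocyte-like cells themselves was not tested. T cell markers were at 7.45 CPM in HFD and 51.05 CPM in ND cells (12 and 14 of 14 detected). H2-Ab1, 1 of the conventional dendritic cell markers, was at 556 and 825 CPM. Summed markers of conventional dendritic cells were at 3062 CPM in HFD and 4392 CPM in ND cells (15 and 14 of 16 markers detected), those of eosinophils at 135 and 885 CPM (10 of 11 in each, Il5ra at 0) and those of plasma cells at 787 and 238 CPM (13 and 10 of 13). Mature neutrophil markers were level, at 2280 and 2299.9 CPM, and Hspa1a was at 1396 and 275 CPM. Their part in the receptor ratios was not tested. Ace, which marks this class, was found in 353 of the 369 HFD cells with Itgax and in 81 of the 84 ND cells, a share close to that among cells with Fcer1g, 1003 of 1067 HFD and 437 of 474 ND cells.

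Classical monocyte-like cells, the Ly6C-high monocytes that leave marrow for inflamed tissue, were 712 HFD and 546 ND cells. Fcgr1 had 235 and 99 UMIs, at 38.5 CPM (33.7 to 43.7) and 22.8 CPM (18.6 to 27.8), and was higher at a log2 ratio of 0.75 (0.41 to 1.11). Fcgr4 had 90 and 27 UMIs and a log2 ratio of 1.24 (0.61 to 1.92). 1 HFD cell held 25 of those 90 UMIs, and the call was lost with all cells (0.50), with doublets kept (0.42) and after thinning (2.08, on fewer UMIs). These were the only calls among the 9 members, where 3.87% of all genes were called. Itgam, at 438 and 434 CPM, and Fcer1g, at 2073 and 2144 CPM, were close to even. Ace was at 36.5 and 12.4 CPM in the class, and 14 of the 40 HFD cells and 6 of the 22 ND cells with Fcgr4 also held Ace, as did 60 of the 711 HFD and 30 of the 546 ND cells with Fcer1g. S100a8 was at 489 and 182 CPM. Neither's part was tested.

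Macrophage-like cells, 1517 HFD and 1717 ND cells led by C1qc, Axl and Mrc1, held the highest level of Fcgr1, and the interval of its ratio included 0 (log2 ratio -0.06, -0.24 to 0.13). Itgam was called higher on 77 and 45 UMIs (0.75, 0.20 to 1.32) and C5ar1 on 44 and 19 UMIs (1.19, 0.38 to 2.05), where 5.76% of all genes were called. A single HFD cell held 19 of the Itgam UMIs, and without the richest cell of each library that call was lost. The C5ar1 call was lost after thinning, at a ratio of 0.41, and with a minimum of 100 UMIs. Thinning kept only 926 HFD and 1023 ND cells of the class, the deeper ones. Both genes are abundant in neutrophils. Immature neutrophil markers summed to 613 CPM in HFD and 213 CPM in ND macrophage-like cells (14 and 13 of 14 detected), mature ones to 1154 and 911 CPM (18 and 17 of 18), and S100a8 was at 430 and 125 CPM; their part was not tested. Fcgr4, at 197 and 145 CPM, had a log2 ratio of 0.44 (0.27 to 0.62), under the 1.5-fold limit.

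Among dendritic cell-like cells, Itgax was higher in the conventional class, with 289 UMIs in 227 HFD cells and 186 UMIs in 219 ND cells, or 174 and 110 CPM (log2 ratio 0.66, 0.39 to 0.94). 5.54% of all genes were called in that class. The call was lost under 5 settings other than a 2-fold limit, where the ratio went as low as 0.19. In the plasmacytoid class Itgax was even, at 170 and 176 CPM. Fcgr4 was called higher in both classes on few molecules, 35 against 11 UMIs in the conventional class and 18 against 2 in the plasmacytoid class, where 3.63% of all genes were called. In the conventional class those UMIs came from 9 HFD and 4 ND cells, of which 8 and 4 also held Ace, against 20 of the 222 HFD and 11 of the 215 ND cells with Fcer1g. The conventional call was lost under 5 alternatives, with ratios between 0.62 and 3.55 over all of them. The plasmacytoid call was lost under 9, among them without the richest cells, and turned to -1.82 under the stricter cell filter.

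**Figure D3:**
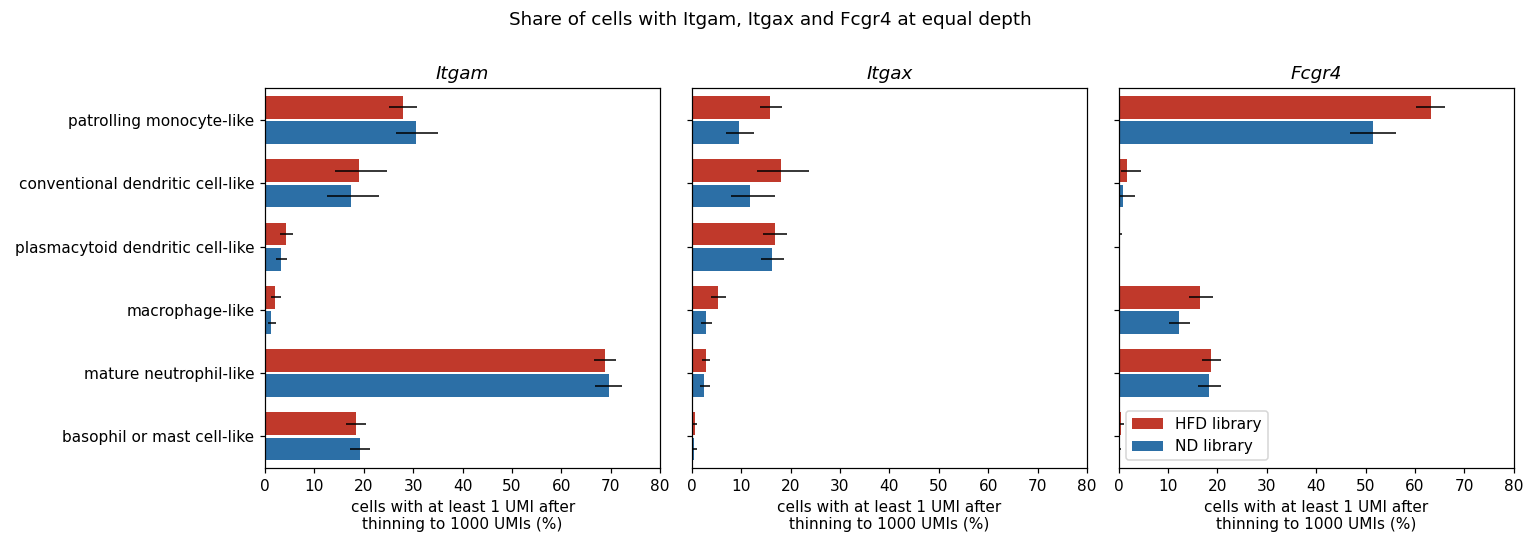
Share of cells with at least 1 UMI of Itgam, Itgax or Fcgr4 after each cell was thinned to 1000 UMIs, by class, red for the HFD library above blue for the ND library, with Clopper-Pearson 95% intervals. The macrophage-like bars cover 926 of 1517 HFD and 1023 of 1717 ND cells, since shallower cells were left out. Itgax is in 15.9% of HFD and 9.48% of ND patrolling monocyte-like cells and in 18.1% and 11.9% of conventional dendritic cell-like cells, and Itgam in mature neutrophil-like cells is near level (68.8% against 69.6%).

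Neutrophils are the cells named in the title of the series, for their uptake and killing of bacteria, to which Fc and complement receptors contribute. Neutrophil-like cells were 3659 of the HFD cells (24.1%, 23.4 to 24.7%) and 2647 of the ND cells (19.1%, 18.4 to 19.7%). Mature cells were 11.8% of HFD and 8.09% of ND cells. For C5ar1, Fcgr4, Itgam, Itgb2 and Fcer1g, levels differed more between the progenitor-like and mature stages than between libraries. C5ar1 went through 3.79, 294 and 1059 CPM from progenitor-like to immature to mature cells in the HFD library and through 2.36, 265 and 911 CPM in the ND library. Fcgr4 went through 7.26, 56.4 and 207 CPM in the HFD library and 4.86, 54.3 and 183 CPM in the ND library. Itgam, Itgb2 and Fcer1g reached high levels by the immature stage: Itgb2 was at 80.4, 1200.3 and 1697 CPM in the HFD library and at 74.8, 1187 and 1824 CPM in the ND library.

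**Figure D4:**
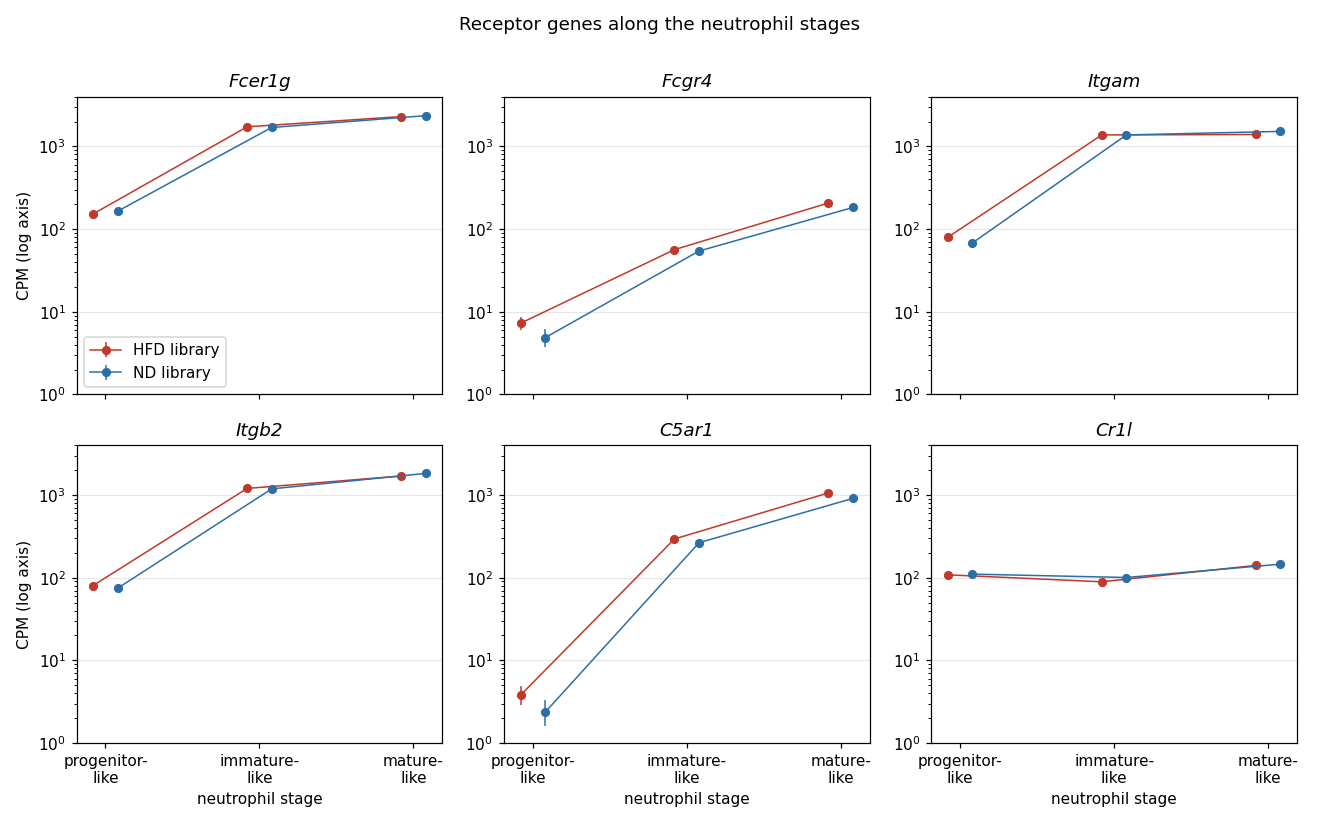
Level of 6 receptor genes in CPM on a log axis in progenitor-like, immature and mature neutrophil-like cells, red for the HFD library and blue for the ND library, with exact Poisson 95% intervals. C5ar1 and Fcgr4 climb at each stage in both libraries, C5ar1 to 1059 and 911 CPM, Itgam is near level from immature to mature cells of the HFD library (1376 and 1393 CPM), and Cr1l stays between 89.2 and 146 CPM.

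Within the stages, few members were called. No member was called in immature or mature neutrophil-like cells, where 3.54% and 5.29% of all genes were called, and 1 in progenitor-like cells (C5ar1 on 58 and 33 UMIs, 0.69, 0.05 to 1.35), where 3.01% were called. 7 of 9 members passed the minimum in each stage. In mature cells the log2 ratios were 0.22 (0.15 to 0.28) for C5ar1, 0.18 (0.03 to 0.33) for Fcgr4, -0.04 (-0.08 to 0.01) for Fcer1g, -0.11 (-0.15 to -0.06) for Itgb2 and -0.12 (-0.18 to -0.07) for Itgam. Over the members, the median was 0.23 at the progenitor stage, 0.03 at the immature and -0.04 at the mature stage, beside 0.00, -0.01 and -0.03 over all genes tested. With the stages pooled, C5ar1 stood at 269 CPM in the HFD and 201 CPM in the ND library (0.42, 0.37 to 0.48), above its ratio in the immature (0.15) and mature (0.22) stages. The pooled median over 8 members was 0.14, and -0.03 with the stages weighted alike. In the pooled class Itgax was called higher (135 and 72 UMIs) and C3ar1 lower (6 and 17 UMIs), where 3.75% of all genes were called. Itgax was not called within any stage, and C3ar1 could not be, since it held under 20 UMIs in each. The pooled C3ar1 call was lost without the richest cell of each library. The pooled Itgax call (0.65) was lost under 9 alternatives, with ratios as low as 0.12, and stood at 0.35 with the stages weighted alike.

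In basophil or mast cell-like cells (1419 HFD and 1453 ND cells) and eosinophil-like cells (387 and 286) no member was called, where 3.26% and 5.96% of all genes were. C5ar1 in the basophil or mast class had 749 and 539 UMIs, 91.3 and 63.5 CPM and a log2 ratio of 0.52 (0.36 to 0.69). Itgam in eosinophil-like cells had 742 and 480 UMIs and a ratio of 0.55 (0.38 to 0.72). Median UMIs per eosinophil-like cell were 1684 in the HFD and 2523 in the ND library, and S100a8 was at 891 and 170 CPM there. Immature neutrophil markers summed to 3006 and 1783 CPM in that class (14 and 13 of 14 detected) and mature ones to 4309 and 3223 CPM (18 and 17 of 18); their part was not tested. A cluster led by F13a1 and with Cd34 among its top genes had Itgax lower, on 35 and 51 UMIs (-0.83, -1.49 to -0.18), where 3.27% of all genes were called. The 5 richest cells of that cluster held 62.9% of the HFD and 51.0% of the ND UMIs.

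Summed over all kept cells of the marrow, Fcgr4 was at 60.5 CPM in the HFD library and 24.8 CPM in the ND library, a log2 ratio of 1.28 (1.22 to 1.35), and C5ar1 at 83.0 and 50.8 CPM, a ratio of 0.71 (0.66 to 0.76). Patrolling monocyte-like cells held 58.4% of the Fcgr4 UMIs in the HFD library and 40.4% in the ND library. That class was 7.06% of HFD and 3.43% of ND cells, so the marrow sum holds both its size and its level. The same goes for C5ar1. Mature neutrophil-like cells held 56.3% of its UMIs in the HFD and 54.6% in the ND library, and were 11.8% and 8.09% of cells. Itgam, Itgb2 and Fcgr1 had ratios of 0.38, 0.36 and 0.36, Fcer1g 0.28 and Itgax 0.21, and C3ar1 and Cr1l both -0.05.

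Fcer1g protein is needed at the surface by the ligand-binding chains encoded by Fcgr1, Fcgr3, Fcgr4 and Fcer1a, so its UMIs were set against the sum of theirs. UMIs were not divided by transcript length, and only the same class is compared between libraries. In patrolling monocyte-like cells there were 3.48 Fcer1g UMIs (3.37 to 3.60) per UMI of the 4 chains in the HFD library and 4.26 (4.03 to 4.51) in the ND library. Fcgr4 made up 83.4% of the chain UMIs in the HFD and 73.4% in the ND cells, and Fcgr3, which encodes the low-affinity activating receptor, 14.4% and 25.02%. Fcgr3 itself was at 193 and 252 CPM (log2 ratio -0.38, -0.56 to -0.19), and inhibitory Fcgr2b at 230 and 335 CPM (-0.54, -0.70 to -0.38), both under the 1.5-fold limit. Mature neutrophil-like cells had 2.74 (2.65 to 2.84) and 2.997 (2.87 to 3.13), with Fcgr3 at 74.96% and 76.2% of the chains.

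**Figure D5:**
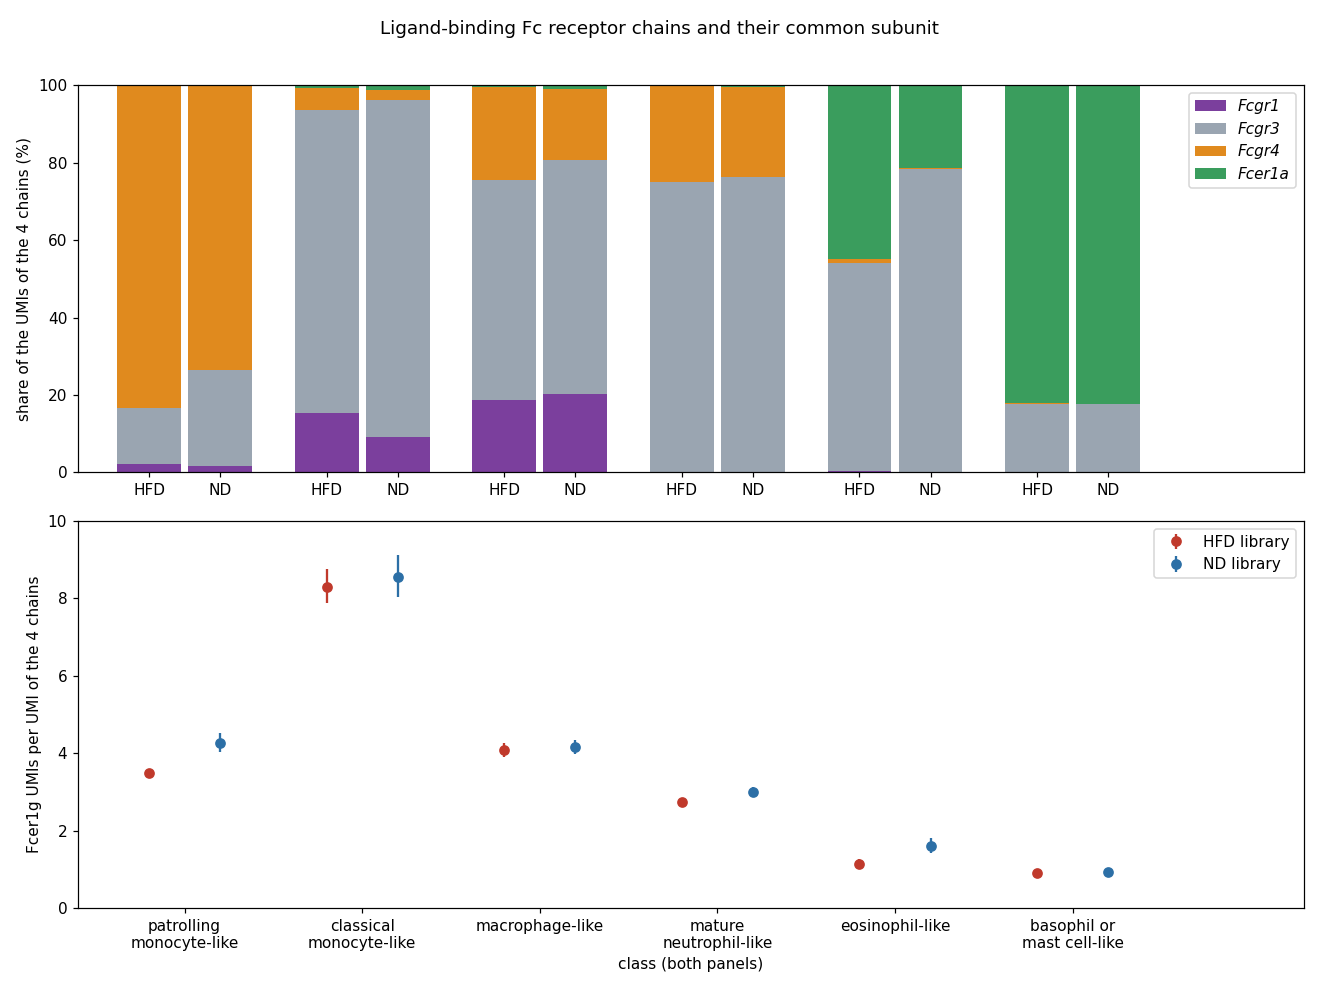
Top, share of the UMIs of 4 ligand-binding Fc receptor genes in 6 classes, HFD bars left of ND bars. Bottom, Fcer1g UMIs per UMI of the 4 genes with exact conditional binomial 95% intervals, red for the HFD library and blue for the ND library; patrolling monocyte-like cells have 3.48 and 4.26 and eosinophil-like cells 1.15 and 1.61.

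In other classes the chain make-up was their own. Classical monocyte-like cells had 8.30 (7.87 to 8.76) and 8.56 (8.04 to 9.13) Fcer1g UMIs per chain UMI, with Fcgr1 at 15.4% of the chains in the HFD and 9.12% in the ND library. Basophil or mast cell-like cells had 0.90 (0.88 to 0.92) and 0.92 (0.90 to 0.94), and 82.2% and 82.3% of their chain UMIs were Fcer1a, the chain that binds immunoglobulin E. Eosinophil-like cells had 1.15 (1.04 to 1.28) and 1.61 (1.43 to 1.80), with Fcer1a on 307 HFD and 103 ND UMIs (log2 ratio 1.495, 1.17 to 1.83). Fcer1a is also a marker of basophils or mast cells, and another of these, Ms4a2, had 412 and 464 UMIs there (-0.25, -0.45 to -0.06). Such markers summed to 3779 and 4453 CPM in the eosinophil-like class (13 of 16 detected in each library), and their part was not tested.

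Genes that work with the 9 receptors were followed in 6 lists, to be read beside the 4.50% of all pairs called. The lists too were chosen with earlier results of these data known. Of 32 Fc receptor signalling genes, kinases such as Syk and Lyn, adaptors and actin regulators, 6 pairs of gene and class were called higher and 3 lower out of 293 over the 10 classes (3.07%), with medians between -0.02 and 0.17. Those higher in eosinophil-like cells included Pik3r5 (0.87), Lyn (0.82) and Fgr (0.73), in the class where neutrophil markers were also higher. Card9, an adaptor downstream of Syk, was higher in classical monocyte-like cells (75 and 31 UMIs, 0.78), and Prkce in macrophage-like cells (1.17). The adaptor Lat2 was lower in patrolling monocyte-like (91.2 and 137 CPM, -0.59) and macrophage-like cells (-0.73), and Lat in immature neutrophil-like cells (-1.30). Of 18 integrin activation genes, 3 pairs of 168 were higher and 0 lower (1.79%): Itgad, another alpha chain of beta 2 integrins, in patrolling monocyte-like cells (59 and 5 UMIs, 2.33), Icam2, a ligand of beta 2 integrins, in immature neutrophil-like cells (0.73) and Itgb2l in eosinophil-like cells (0.95).

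Inhibitory receptors and phosphatases, which counter the activating receptors, had 11 pairs higher and 8 lower of 181 (10.5%). Siglece, a sialic acid receptor, was higher in patrolling monocyte-like (209 and 28 UMIs, 1.67) and macrophage-like cells (227 and 117 UMIs, 0.93). Dok1 (0.79) and Pecam1 (0.64) were also higher in patrolling monocyte-like cells, and Lilrb4a was higher in mature neutrophil-like cells (799 and 342 UMIs, 0.68) but lower in classical monocyte-like cells (225 and 256 UMIs, -0.68). Fcgr2b, the inhibitory receptor for immunoglobulin G, was lower in macrophage-like cells at 16.7 and 41.3 CPM (-1.31, -1.80 to -0.83). Other complement receptors and regulators had 6 pairs higher and 3 lower of 86 (10.5%). Vsig4, a macrophage receptor for C3 fragments, was higher in macrophage-like cells at 146 and 61.2 CPM (1.25, 1.00 to 1.502), and Cd55, which breaks down complement convertases, was lower there at 43.5 and 79.2 CPM (-0.86). C5ar2, the second C5a receptor, was higher in classical monocyte-like cells on 46 and 17 UMIs (0.94).

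Of other Fc receptors, 5 pairs were higher and 8 lower of 72 (18.1%), with Fcrl5, a B lineage gene, on 49 and 2 UMIs in patrolling monocyte-like cells (3.39), where plasma cell markers were also higher (787 and 238 CPM). Of 18 further genes, receptors that use Fcer1g or a like adaptor and the adaptors Tyrobp and Hcst, 10 pairs were higher and 8 lower of 111 (16.2%). Fcgr3, Fcer1a and Ms4a2 stand in both lists, so their calls count in both shares. Likewise, Fcgr2b stands in the list of other Fc receptors and in the inhibitory list. Itgad and Itgal stand in the list of other complement receptors and in that of integrin activation. Some rest on few UMIs, as Ms4a2 lower in conventional dendritic cell-like cells (5 and 17 UMIs) and Fcer1a higher in plasmacytoid ones (25 and 4 UMIs). Clec4n, which encodes Dectin-2, was higher in macrophage-like cells (293 and 177 UMIs, 0.70), Pilrb1 and Clec4d in classical monocyte-like cells (0.63 and 0.61), and Pira2 was lower in plasmacytoid dendritic cell-like cells (257 and 430 UMIs, -0.67).

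Likeness of pattern was measured as Pearson's r of log2(CPM + 10) over 38 profiles, 19 classes in 2 libraries, among genes with at least 200 UMIs. It is given as a description, since profiles share libraries and the 2 profiles of a class are near copies. Fcgr1 was most like Cd302 and Tmem106a (0.97 each), and Fcgr4 most like Pilra (0.92), Cd300c2 and Treml4 (0.91 each). Fcer1g went with Tyrobp (0.94), the other small adaptor with an activation motif, and then Apobr (0.88) and Hpcal1 (0.87). Itgam was nearest to Mapk3 and Pi16 (0.91 each) and Anxa1 (0.90), Itgb2 to Xdh (0.92), Apobr and Slfn2 (0.88 each). C5ar1 was nearest to Bmx (0.94), Gm49368 (0.92) and C5ar2 (0.91), and C3ar1 to Lamb1 (0.91), Lama5 and Defb40 (0.90 each). Itgax and Cr1l had no close match, with Il12rb2 at 0.78 and Cd274 at 0.76 as their nearest. Among the members, the closest pairs were Fcer1g with Itgb2 (0.88) and Itgam with C5ar1 (0.78), and Itgam with Itgax was at 0.16.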

How the data were processed

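Bone marrow of mice on the 2 diets was measured in 1 library each. The deposited tables hold counts, that is whole-number molecules (UMIs) per gene and cell after RSEC error correction, and per the file headers the authors made them with version 1.9.1 of BD's WTA Rhapsody Analysis Pipeline. Build and annotation were not given in the sources used here. Genes were matched by symbol, at 0 where a table lacked one.

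Cells under 200 genes or over 25% mitochondrial UMIs were dropped, and Scrublet doublets (expected rate 5%) were removed within each library. Both libraries were clustered together without integration (igraph 0.11.9, scanpy 1.11.5, scipy 1.17.1, Python 3.11.15, scikit-learn 1.9.0, numpy 2.4.6): 10000 UMIs per cell, log, 2000 variable genes, 30 components, 15 neighbours, Leiden resolution 1 and 32 clusters. Clusters were named for the class with most markers in their top 50 genes, ranked by fold (pseudocount 10 CPM, in at least 10% of cells), given at least 3 markers and no more of another class in the top 10. After the clusters were seen, clusters under 50 cells were left unnamed, and a classical monocyte cluster with Cd34 in its top 12 genes was called by its genes. 690 HFD and 525 ND cells stayed unnamed. The 9 members and the lists were chosen with earlier results of these data known. Named were all members in every myeloid class, up to 4 called genes per list and class by size, and the 3 nearest genes by likeness; list genes named were taken from those, and some genes that the rule names are not reported here. For ratios, 0 UMIs were set to a floor of 3. Intervals and floors cover counting error only. The computation was checked on simulated data. Figures used matplotlib 3.10.9. Alternatives changed the cell filter, doublets, resolution, members in the clustering, scaling, depth, UMI minimum and fold limit; leaving out the richest cell of each library was added after seeing the data.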

Additional observations from a re-analysis of the deposited data

Results flagged for a closer look

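Itgax differed in direction between cell types of the HFD library relative to the ND library. It was called higher in patrolling monocyte-like cells (log2 ratio 1.23) and in conventional dendritic cell-like cells (0.66), and lower in the cluster led by F13a1 with Cd34 among its top genes (-0.83, on 35 HFD and 51 ND UMIs). In that cluster the 5 richest cells held 62.9% and 51.0% of these UMIs, and its call was not recomputed under the alternatives. The difference between these classes was not tested, since each diet has 1 library.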

How the results depend on the processing

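The 82 ratios of a member in a class or in all neutrophil-like cells were recomputed under the alternatives that change a ratio, giving 895 values. Of these, 792 stayed within the counting interval of the main ratio and 100 moved outside it. Another 3, all of called ratios, changed sign. Sign changes were counted for called ratios only. The 13 calls over the 10 classes became 7 with each cell thinned to 1000 UMIs, 8 with a minimum of 100 UMIs and 6 with a 2-fold limit. With doublets kept 11 were called, but 7 of the original 13 were lost, as many as with the 2-fold limit. Those higher, 12, became 7 with all cells, 7 with thinning and 5 at 2-fold. The 1 lower became 2 with all cells and 2 with a mean over cells, and 0 with thinning and with 100 UMIs. C3ar1 in patrolling monocyte-like cells changed sign to 1.59 with doublets kept and to 2.66 with the members kept in the clustering, and Fcgr4 in plasmacytoid dendritic cell-like cells to -1.82 under the stricter cell filter (500 genes, 15% mitochondrial UMIs); the cause was not tested. Itgax in patrolling monocyte-like cells kept its call throughout, and Fcgr1 in classical monocyte-like cells in all but the 2-fold limit. The other calls were lost under 2 to 9 settings each. Fcgr4 in patrolling monocyte-like cells lay between 0.53 and 0.61, across the limit, and lost its call under 5 settings. The median over members in neutrophil-like cells lay between 0.06 and 0.19 except with the stages weighted alike (-0.03). No paired analysis was possible because there was 1 library per diet, and for the same reason no replicate could be left out. Ratios of C3ar1 outside basophil or mast cell-like and macrophage-like cells rest on few UMIs. The 7 HFD and 3 ND UMIs of Fcgr1 in neutrophil-like cells stood among 28213309 and 23539046 UMIs of that class. Median UMIs per cell were 4068 and 4851 there, and the part of depth was not tested.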

Other observations

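Fcgr4 was also called higher in erythroid-like cells, with 199 UMIs in the HFD library and 21 in the ND library. 28 of 810 HFD and 18 of 1102 ND cells held them, and 1 HFD cell held 100. Without the richest cell of each library, Fcgr4 had 99 and 19 UMIs, Itgam 84 and 55, Itgax 25 and 8 and C5ar1 34 and 11. Fcgr1 had 10 and 15 and Cr1l 2076 and 3316. The class held 16712039 HFD and 24959648 ND UMIs. Mature neutrophil markers summed to 195 and 135 CPM there. S100a8 was at 170 and 78.3 CPM and Ace at 2.51 and 0.24 CPM, and their part was not tested. The share of all genes called was not computed for this class. Megakaryocyte-like cells, where Fcer1g carries the signal of the collagen receptor GPVI, had Fcer1g at 445 CPM in the HFD library and 198 CPM in the ND library (log2 ratio 1.17, 0.98 to 1.35), in 117 HFD and 145 ND cells; the 5 richest cells held 38.2% and 32.5% of these UMIs. Itgb2 was at 160 and 96.6 CPM there (0.73, 0.45 to 1.01).

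The libraries also hold an antibody tag named for CD16/CD32, the products of Fcgr3 and Fcgr2b, and its binding to other Fc receptors was not tested. Its median per cell, not scaled, was 32 in the HFD and 47 in the ND library in patrolling monocyte-like cells, 20 and 31 in mature neutrophil-like cells, 71 and 113 in basophil or mast cell-like cells, and 2 and 3 in T cell-like cells. The T cell-like class, which also carried NK cell markers, held Fcgr3 at 8.89 and 7.05 CPM and Fcgr2b at 6.35 and 9.26 CPM. The tag median was lower in the HFD library in all 20 classes, HSPC-like (5 and 10) and B cell-like cells (7 and 15) included. Fcgr3 RNA in mature neutrophil-like cells was at 627 and 598 CPM (log2 ratio 0.07, -0.01 to 0.15).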
